A study of Caenorhabditis elegans with 9 samples.

Results

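The antibacterial factor (abf), caenacin (cnc), fungus-induced protein (fip) and fip-related (fipr) genes of Caenorhabditis elegans encode small secreted peptides, and they were followed here in whole animals exposed to graphene oxide. Members were all genes of the deposited table whose WormBase symbol is abf-, cnc-, fip- or fipr- with a number. The rule itself uses no values, but the families were chosen with earlier results of these data known. The rule gave 53 of 46284 genes, with 6 abf, 11 cnc, 7 fip and 29 fipr genes. A gene was counted as expressed at 1 FPKM or more in at least 3 of 9 libraries, FPKM being the fragments of a gene divided by its transcript length in kilobases and scaled to the fragments of the library. By this measure 27 members were expressed, namely 3 abf, 8 cnc, 3 fip and 13 fipr genes, against 12849 genes in the whole table.

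The animals were wild-type N2, the standard laboratory strain, kept in liquid culture for 12 h at 500 animals per sample. The 9 samples form 3 groups of 3: animals with graphene oxide (GO, carbon sheets bearing oxygen groups), animals with amino-functionalised GO (GONH2), and mock-treated animals without a nanomaterial (control). Strain, culture and time were shared by all groups. The labels state neither dose, worm age nor whether replicates were grown separately. P-values therefore reflect spread among these 9 samples, which may be technical.

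Abf peptides are defensin-like antimicrobials held together by cysteine bridges, and abf-2 is known from the pharynx. Caenacins are glycine-rich peptides of the epidermis. There, cnc-2 is induced by the fungus Drechmeria coniospora through DBL-1, a signal of the TGF-beta family, while the related nlp-29 peptides are induced by fungus and wounding through the p38 kinase PMK-1. The fip genes were named for their rise on fungal infection, and the fipr genes for their resemblance to them. The roles of most single fip and fipr genes are not known to a comparable degree.

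Whole animals hold all tissues, and markers of each were present. Of the markers listed for each tissue, 7 of 10 epidermal, 9 of 10 pharyngeal, 9 of 10 intestinal, 8 of 8 muscle, 10 of 10 germline and 7 of 8 neuronal genes were expressed. The listed intestinal gene opt-2 could not be matched to a gene of the deposited table, so its expression is unknown. In such samples fewer cells of a type and less RNA per cell cannot be told apart. Library sums ran from 955606 to 1010904 FPKM, and read totals are unknown.

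The members are short genes. Among the 27 expressed members the longest annotated peptide of a gene had a median of 82 residues (51 to 195), against 360 over the 12242 tested protein-coding genes. Exon length had a median of 392 bases, against 1378 bases. The residual SD of log2(FPKM + 1) had a median of 0.323 over the expressed members and 0.111 over all genes tested. The 95% confidence interval of a log2 difference accordingly reached a median of 0.52 to each side for members, against 0.217 over all genes. Smaller changes were not detectable for many of them. Larger ones could also fail after adjustment over all genes, as fipr-10 did at −0.88 for GO minus control (limma, adjusted p = 0.235).

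Members sit in small genomic groups. By the Ensembl annotation of WBcel235 (for the deposited values the build is not given in the sources used here), 26 of the 53 lie on chromosome V and 6 on X, with 7 on I, 9 on III and 5 on IV. All 6 members on X were expressed, against 13 of 26 on V, 6 of 7 on I, 2 of 9 on III and 0 of 5 on IV. The caenacins cnc-11, cnc-1, cnc-5, cnc-4, cnc-3 and cnc-2 lie within 7842 bases of V (1442342 to 1450183). On X, fip-5, fipr-21 and cnc-8 lie within 4211 bases (10302741 to 10306951), so that 3 families meet in 1 group, and abf-5 and abf-6 lie within 2017 bases (12792854 to 12794870).

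The most abundant member was cnc-2, with a mean of 150.4 FPKM over the 9 libraries, followed by fipr-21 (141), cnc-8 (109) and fip-2 (108). These 4 genes were the members above 100 FPKM. Another 13 members averaged 10 to 100 FPKM and 10 averaged less. In 22 of the 27 all 9 libraries reached 1 FPKM. The expressed members together held 0.0795% to 0.108% of the FPKM of a library. An average of 1 FPKM or more was reached by 25 of them with GO, 26 with GONH2 and all 27 in control animals. Those below it were fipr-10 (0.674 FPKM) and cnc-11 (0.827 FPKM) with GO, and fipr-23 (0.804 FPKM) with GONH2. These genes lie near the limit for being counted as expressed, which the control libraries of fipr-10 met alone. The matching share of all genes was not counted, so these counts do not show a loss of members with a nanomaterial.

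**Figure D1:**
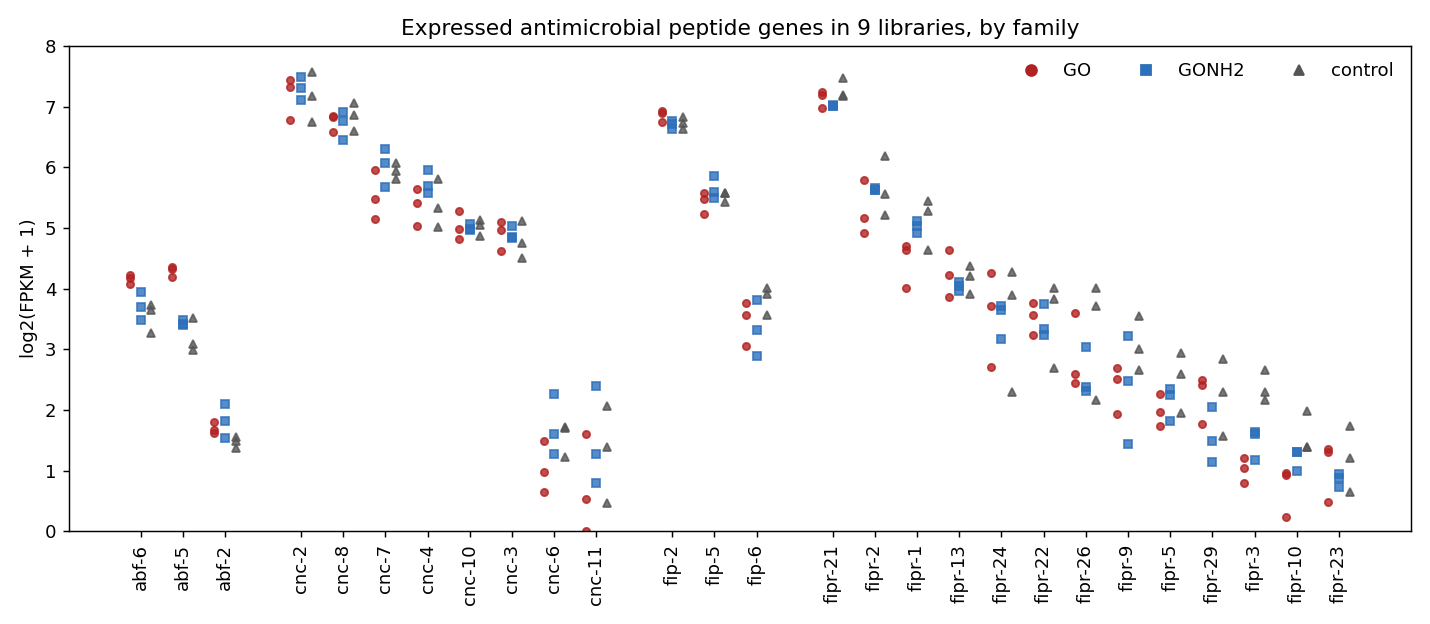
Levels of the 27 expressed abf, cnc, fip and fipr genes as log2(FPKM + 1), with a point for each of the 9 libraries (circles GO, squares GONH2, triangles control). Genes are ordered by mean level within their family. The GO libraries of abf-5 stand above its other libraries, those of fipr-3 lie below its control libraries, and in most other genes the groups overlap.

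The remaining 26 members were not expressed. Of these, abf-3, cnc-9, fip-3, fip-7, fipr-12, fipr-14, fipr-18, fipr-25 and fipr-27 were listed at 0 in all libraries, and 17 had a value above 0 in at least 1 library. In 12 of the 17 a value of 1 FPKM or more was reached in 1 or 2 libraries. Just inside the threshold were fipr-23, with 4 libraries at 1 FPKM or more, and fipr-10 and cnc-11, with 5 each. Just outside it were fipr-15, fipr-16 and fipr-20, each with 2 such libraries.

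The comparison of GO with control animals asks which members respond to the unmodified sheets. Here abf-5 rose to 2.24 times its control level and fipr-3 fell to 0.244 times its control level on the FPKM scale. The other 25 expressed members did not pass. Called genes were 1.26% of all 12849 genes tested (1.08% higher and 0.179% lower, limma, adjusted p under 0.05), and 5 members had an unadjusted p under 0.05, against 7.74% of all genes. Each direction rests on a single member. Caenacin and fip genes had 0 calls in either direction.

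Among the abf genes, abf-5 carried the clearest difference. It had 17.3, 19.4 and 18.9 FPKM in the GO libraries, 10.1, 9.57 and 9.72 FPKM in the GONH2 libraries, and 10.5, 6.89 and 7.47 FPKM in the control libraries. All GO libraries lay above the other 6, while GONH2 and control overlapped. The difference of log2(FPKM + 1) was 1.09 ± 0.131 (SE) for GO minus control (adjusted p = 0.00424). For GONH2 minus control it was 0.24 ± 0.131 (95% interval −0.06 to 0.54), which did not pass.

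Its neighbour abf-6 had 17.7, 17.1 and 15.8 FPKM with GO, 14.3, 10.2 and 12.0 FPKM with GONH2, and 12.3, 8.59 and 11.6 FPKM in control animals. The GO libraries again lay above all others. The difference for GO minus control was 0.61 ± 0.148, with an unadjusted p of 0.00296 in limma, and did not pass over all genes (adjusted p = 0.152). Both genes lie within the span of the receptor gene nhr-27 on the opposite strand. That gene was listed at 0.0301 FPKM or less in every library.

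The pharyngeal peptide gene abf-2 was low, at 2.17, 2.502 and 2.09 FPKM with GO, 1.89, 2.51 and 3.26 FPKM with GONH2, and 1.94, 1.58 and 1.80 FPKM in control animals. GO lay above control in each library, and GONH2 overlapped both. Neither difference passed (0.23 ± 0.151 for GO, adjusted p = 0.841; 0.34 ± 0.151 for GONH2, adjusted p = 0.943). On its opposite strand abf-2 overlaps C50F2.2, listed at 32.5 to 34.9 FPKM, so that, where counting did not use strand, reads of the pair could not be told apart. Summed over the 3 expressed abf genes, levels were 37.7 ± 1.21 FPKM with GO, 24.5 ± 2.08 FPKM with GONH2 and 20.9 ± 3.86 FPKM in control animals (SD, n = 3 each). The abf median log2 difference from control was 0.61 with GO and 0.24 with GONH2, against 0.024 and 0.0031 over all genes tested.

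**Figure D2:**
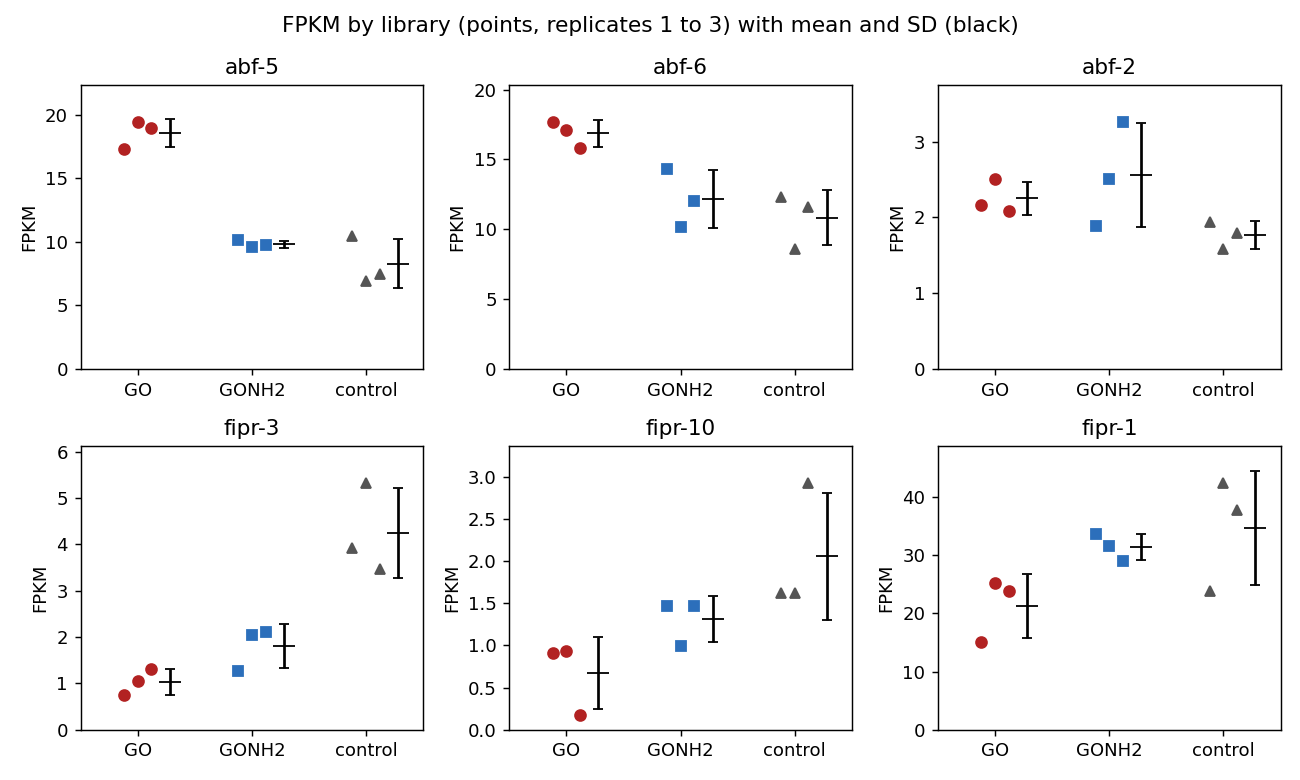
FPKM of abf-5, abf-6, abf-2, fipr-3, fipr-10 and fipr-1 in each library, with coloured points for replicates 1 to 3 of GO, GONH2 and control, and black marks for mean and SD. The GO libraries of abf-5 (17.3 to 19.4) lie above all others, and the 3 control libraries of fipr-3 (3.47 to 5.33) lie above all 6 libraries with a nanomaterial.

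The fipr family held the 1 member that fell. fipr-3 had 0.738, 1.05 and 1.31 FPKM with GO, 1.26, 2.03 and 2.11 FPKM with GONH2, and 3.93, 5.33 and 3.47 FPKM in control animals. Every library with a nanomaterial lay below every control library, and the GO and GONH2 libraries overlapped. GO minus control was −1.36 ± 0.187 (adjusted p = 0.00899). GONH2 minus control was −0.90 ± 0.187 and did not pass (adjusted p = 0.144; 95% interval −1.33 to −0.47). With the F test of any difference among the groups, adjusted p was 0.00965 for abf-5 and 0.0250 for fipr-3, and no other member passed (0.957% of all genes did). Without GO replicate 2 or GO replicate 3 neither gene passed this F test, and with any other single library left out 1 or 2 did.

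On the opposite strand of fipr-3 lies the overlapping gene F23D12.11, listed at 251 to 349 FPKM, with 297, 300.04 and 297 FPKM with GO, 283, 272 and 251 FPKM with GONH2, and 243, 349 and 269 FPKM in control animals. The library kit keeps strand, but no source used here says whether counting used it. Reads of the pair may therefore not be fully told apart, and its part in the fipr-3 values was not tested. F23D12.11 itself differed by 0.070 in log2 terms for GO minus control (adjusted p = 0.970).

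Further fipr genes had lower values with GO without passing. fipr-10 had 0.907, 0.938 and 0.176 FPKM with GO, 1.47, 0.995 and 1.46 FPKM with GONH2, and 1.62, 1.62 and 2.93 FPKM in control animals, so all 3 groups were apart (GO minus control −0.88 ± 0.241, adjusted p = 0.235). It averaged 0.674 FPKM with GO, close to the limit of what was counted as expressed. fipr-1 had 15.02, 25.2 and 23.8 FPKM with GO, 33.6, 31.6 and 29.1 FPKM with GONH2, and 23.8, 42.5 and 37.8 FPKM in control animals. GO and control overlapped, and the difference of −0.67 ± 0.235 did not pass (adjusted p = 0.451).

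The abundant fipr-21 had 125, 149.5 and 145 FPKM with GO, 130.1, 127 and 128 FPKM with GONH2, and 143, 176 and 145 FPKM in control animals. GONH2 lay below all control libraries and GO overlapped them. GONH2 minus control was −0.26 ± 0.0881 (adjusted p = 0.639). fipr-2, which lies beside fipr-1 on V, had 29.1, 34.8 and 54.1 FPKM with GO, 48.4, 48.3 and 49.3 FPKM with GONH2, and 36.0, 71.7 and 46.3 FPKM in control animals. All its groups overlapped.

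As a family, 10 of the 13 expressed fipr genes had a negative difference from control with GO and 12 of 13 with GONH2 (76.9% and 92.3%, against 38.4% and 48.1% of all genes tested). These comparisons share the control libraries. The median difference was −0.37 with GO and −0.35 with GONH2. Without GO replicate 3 the GO median was −0.20, and with genes under 5 FPKM left out the GONH2 median was −0.11. The median deviation of the family from its mean over the 9 libraries was −0.23, 0.078 and −0.25 in the GO libraries, −0.11, −0.090 and 0.044 in the GONH2 libraries, and 0.23, 0.32 and 0.35 in the control libraries. Summed levels were 262 ± 19.6 FPKM with GO, 264 ± 5.42 FPKM with GONH2 and 315 ± 36.8 FPKM in control animals (SD, n = 3 each). Of the fipr genes, fipr-3 alone passed. Among those not described above, fipr-13 averaged 17.0 FPKM over the 9 libraries, fipr-26 7.40, fipr-9 5.62, fipr-5 3.77 and fipr-29 3.27 FPKM, and in these genes the groups overlapped in every comparison.

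Pharynx markers were divided. Of the 9 expressed, 0 passed over all genes in limma, and 4 had an unadjusted p under 0.05 with GO (7.74% of all genes did). With GO 6 had a negative difference from control and 3 a positive one (66.7% negative, against 38.4% of all genes). With GONH2 3 had an unadjusted p under 0.05 (5.31% of all genes), and 6 were negative and 3 positive (66.7% against 48.1%). In 2 of them GONH2 lay below every control library (22.2%, against 3.65% of all genes). Lower with GO than in every control library were 4 of 9 (myo-2, myo-1, tnt-4 and phat-2), where 3.12% of all genes were apart and lower. The transcription factor gene pha-4, in contrast, had 24.0, 26.6 and 24.996 FPKM with GO, 18.1, 20.5 and 26.8 FPKM with GONH2, and 24.8, 19.3 and 18.9 FPKM in control animals, so the groups overlapped (0.26 with GO, adjusted p = 0.777). ceh-22 and phat-3 also had positive differences with GO, of 0.12 and 0.051. The summed level of the 9 was 72.1 to 75.2 FPKM with GO, 66.6 to 79.4 FPKM with GONH2 and 70.0 to 97.1 FPKM in control animals. The pharyngeal marker phat-1 stayed at or below 0.966 FPKM in all libraries. The part of pharyngeal RNA in the fipr values was not tested. Intestine markers were divided as well, 5 with a positive and 4 with a negative difference from control with GO (median 0.0068). Of the 9 expressed, asp-1 (0.47) and ges-1 (0.40) rose with GO (limma, adjusted p = 2.50e-04 and 0.0177), or 22.2% against 1.26% of all genes. With GONH2 asp-1 rose also (0.40, limma, adjusted p = 0.00245), or 11.1% against 0.436% of all genes. mtl-2 had 74.7, 66.7 and 65.6 FPKM with GO, 82.7, 75.2 and 73.1 FPKM with GONH2, and 89.1, 90.1 and 81.4 FPKM in control animals, so GO lay below every control library (−0.33, adjusted p = 0.0693). The other way went vha-6, at 92.5, 90.8 and 90.9 FPKM with GO and 78.4, 79.0 and 77.9 FPKM in control animals. With GO the groups were apart in 4 of the 9, 3 higher (asp-1, ges-1 and vha-6) and 1 lower (44.4%, against 12.1% of all genes). With GONH2 they were apart in 2, both higher (22.2% against 8.83%). The 9 markers, most of whose level is asp-1 and cpr-6, summed to 3309 to 3417 FPKM with GO, 3188 to 3371 FPKM with GONH2 and 2862 to 2938 FPKM in control animals. Their part in the abf-5 values was not tested either.

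The caenacins, peptides of the epidermis, had 0 of 8 expressed genes past the threshold in any comparison by limma, and at an unadjusted p under 0.05 they had 0 against control with either nanomaterial and 1 between the materials. In 0 of 8 were the groups apart in any comparison. Over all genes, 7.74% had such an unadjusted p with GO, 5.31% with GONH2 and 4.65% between the materials. Groups were apart in 12.1%, 8.83% and 10.02% of all genes, in the same order. At such shares, counts of 0 or 1 among 8 genes do not set the family apart from all genes. cnc-2 had 109, 173 and 159.8 FPKM with GO, 137, 157 and 178 FPKM with GONH2, and 107, 189 and 144 FPKM in control animals. The GO and control replicates spread over most of the range of all libraries, and the GONH2 replicates over a narrower part. A difference between −0.51 and 0.54 for GO minus control stays within its 95% interval.

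cnc-8, on X beside fipr-21, had 95.004, 112 and 114 FPKM with GO, 85.9, 119.1 and 107 FPKM with GONH2, and 96.2, 133 and 115.4 FPKM in control animals. cnc-4 had 41.7, 48.8 and 31.9 FPKM with GO, 50.6, 46.5 and 60.7 FPKM with GONH2, and 39.4, 54.9 and 31.4 FPKM in control animals. In both genes all groups overlapped. The same held for cnc-3, between 21.7 and 33.8 FPKM in all libraries, and for cnc-10, between 27.1 and 37.8 FPKM.

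Lower values with GO than with GONH2 were found in cnc-7 and cnc-6, without passing. cnc-7 had 77.7, 49.8 and 66.2 FPKM with GONH2 against 34.3, 60.9 and 43.4 FPKM with GO, and 60.5, 66.5 and 54.8 FPKM in control animals. cnc-6, on chromosome III, had 2.04, 1.43 and 3.80 FPKM with GONH2 against 0.957, 1.81 and 0.573 FPKM with GO, and 1.35, 2.25 and 2.30 FPKM in control animals. The groups overlapped in both. GONH2 minus GO was 0.49 ± 0.214 for cnc-7 and 0.68 ± 0.297 for cnc-6. Within the group of caenacins on V, levels were uneven. cnc-2, cnc-3 and cnc-4 averaged 150.4, 28.4 and 45.1 FPKM over the 9 libraries, cnc-11 averaged 1.56 FPKM across widely spread libraries (2.03, 0.448 and 0 FPKM with GO, 4.24, 0.738 and 1.42 FPKM with GONH2, and 3.16, 1.63 and 0.374 FPKM in control animals), and cnc-1 and cnc-5 were not expressed.

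None of the 3 expressed fip genes passed in any comparison by limma, and at an unadjusted p under 0.05 they had 0 against control with either nanomaterial and 1 between the materials. Such a p was found in 7.74% of all genes with GO, 5.31% with GONH2 and 4.65% between the materials. Counts of 0 or 1 among 3 genes do not set the family apart from these shares. fip-2 had 107, 121 and 118 FPKM with GO, 97.6, 103 and 108 FPKM with GONH2, and 98.3, 105 and 113 FPKM in control animals. Its groups overlapped, and the 95% interval for GO minus control was −0.02 to 0.28, the narrowest of the 27 members. fip-5 had 36.6, 46.8 and 43.5 FPKM with GO, 44.1, 47.1 and 57.2 FPKM with GONH2, and 46.7, 46.5 and 42.2 FPKM in control animals. fip-6 had 10.8, 12.6 and 7.28 FPKM with GO, 8.98, 6.39 and 13.1 FPKM with GONH2, and 14.0, 10.9 and 15.2 FPKM in control animals. Neither passed, and the groups overlapped in both. The fip median difference was −0.098 with GO and −0.030 with GONH2.

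**Figure D3:**
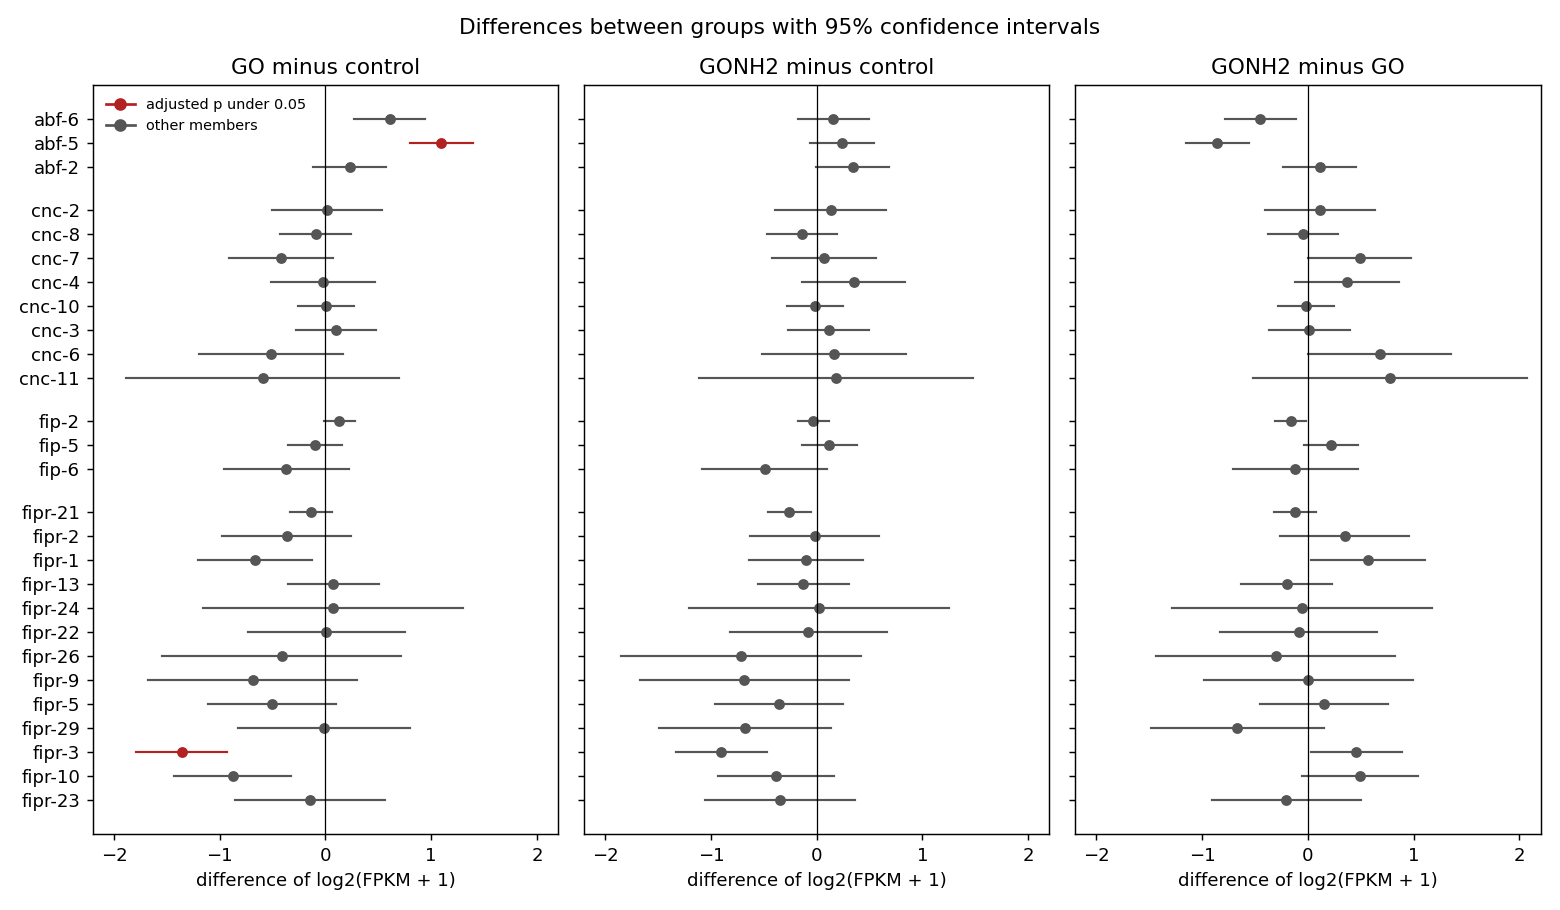
Differences of log2(FPKM + 1) with 95% confidence intervals for each of the 27 expressed members, in panels for each nanomaterial minus control and for GONH2 minus GO, with genes running down the page by family. Members past an adjusted p of 0.05 are red, which marks abf-5 (1.09) and fipr-3 (−1.36) in the GO panel and no gene in the others.

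The comparison of GONH2 with control animals puts that question to the sheets with amino groups. Of the 27 expressed members 0 passed in limma, where 0.436% of all genes did, and 2 members had an unadjusted p under 0.05 (fipr-3 and fipr-21), against 5.31% of all genes. The groups were apart in 3 members, all lower with GONH2 (fipr-3, fipr-10 and fipr-21), or 11.1%, where 3.65% of all genes were apart and lower and 5.18% apart and higher. With GO this count was 5, with abf-2, abf-5 and abf-6 higher, or 11.1% against 9.0% of all genes, and fipr-3 and fipr-10 lower, or 7.41% against 3.12%.

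The direct comparison of the materials, GONH2 minus GO, also had 0 of 27 members past the threshold (0.132% of all genes passed), with 6 members at an unadjusted p under 0.05 (4.65% of all genes). abf-5 came closest, at 9.81 ± 0.284 FPKM with GONH2 and 18.6 ± 1.10 FPKM with GO (SD, n = 3 each). The difference was −0.86 ± 0.131, with a 95% interval of −1.15 to −0.56 and an adjusted p of 0.0839. It did pass with 4 other settings, at adjusted p = 0.00867 with array weights, 0.0283 in a fit to the 6 libraries compared, 0.0472 with 5 added before the logarithm and 0.0128 without control replicate 1. In all other refits it did not pass in limma, with adjusted p from 0.0543 (without control replicate 2) to 0.416 (without GONH2 replicate 2). For abf-6 the difference was −0.45 ± 0.148 (adjusted p = 0.837). In 4 members the groups were apart, abf-5 and abf-6 lower with GONH2, and fipr-1 and fipr-10 higher, each 7.41% of members, against 7.09% of all genes lower and 2.93% higher. Since the doses are not given, the materials are compared as the study applied them.

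Libraries of a group differed among themselves in a way that ran through several members. In control replicate 2, 10 of the 27 members had their highest value of the 9 libraries (cnc-2, cnc-3, cnc-8, fipr-1, fipr-2, fipr-3, fipr-5, fipr-9, fipr-21 and fipr-29) and 6 their lowest (abf-2, abf-5, abf-6, fipr-22, fipr-24 and fipr-26). Among all genes tested this library was highest in 16.9% and lowest in 13.3%. The genes low there included fipr-22, at 12.5, 10.9 and 8.46 FPKM with GO, 12.4, 8.40 and 9.03 FPKM with GONH2, and 15.1, 5.49 and 13.3 FPKM in control animals. fipr-24 had 18.2, 12.1 and 5.56 FPKM with GO, 12.1, 11.5 and 7.997 FPKM with GONH2, and 13.9, 3.88 and 18.4 FPKM in control animals. Both lie in a group with fipr-23 on chromosome I, and in both genes all groups overlapped. GO replicate 1 also had the lowest value in 6 members (cnc-7, fip-5, fipr-1, fipr-2, fipr-3 and fipr-21), against 9.43% of all genes. GO replicate 3 had it in 6 others (cnc-6, cnc-10, cnc-11, fipr-10, fipr-13 and fipr-23), against 9.71% of all genes.

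Without control replicate 2, abf-5 remained higher with GO (0.99, adjusted p = 0.0126) and fipr-3 lower (−1.22, adjusted p = 0.0273). The fipr median was then −0.42 with GO and −0.44 with GONH2. fipr-22 and fipr-23 have the same annotated length of 191 residues and the same number of exons, 5, and averaged 10.6 and 1.12 FPKM. Their sequences were not compared here, and if they are near copies the authors' counting could split reads between them, so their values are uncertain.

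**Figure D4:**
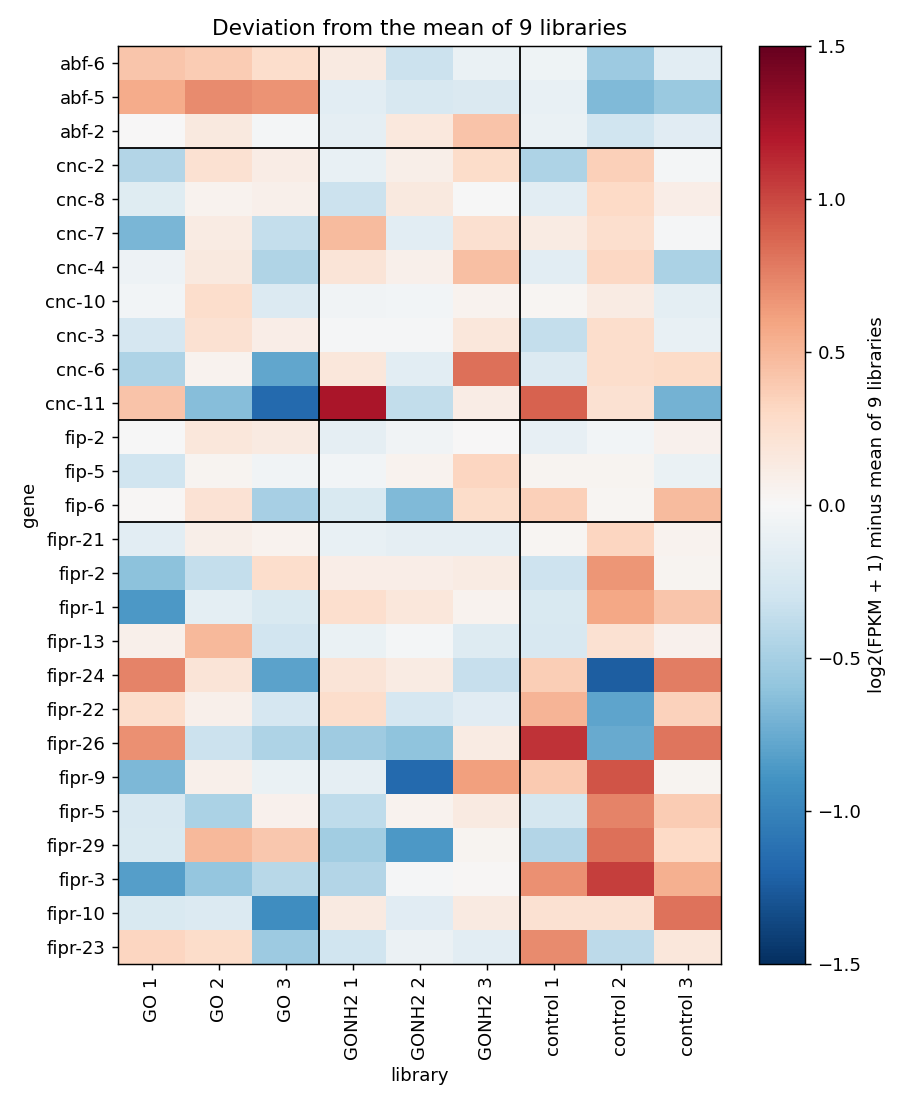
Deviation of log2(FPKM + 1) from the mean of the 9 libraries for each expressed member (rows, by family) in each library (columns, GO, GONH2 and control), with red above and blue below the mean. abf-5 is red in the GO libraries and fipr-3 in the control libraries, and control replicate 2 is red in many cnc and fipr genes and blue in the abf genes, fipr-22, fipr-24 and fipr-26.

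The related epidermal peptides of the nlp-29 group and the listed genes of the p38 and DBL-1 arms had 0 genes past the threshold in any comparison by limma. Of 8 nlp peptide genes (nlp-27 to nlp-34), 7 were expressed, and 0 had an unadjusted p under 0.05. They summed to 1084 ± 114.8 FPKM with GO, 1048 ± 60.6 FPKM with GONH2 and 1131 ± 134 FPKM in control animals (SD, n = 3 each). nlp-29 had 164, 230.2 and 175 FPKM with GO, 184, 181 and 213 FPKM with GONH2, and 174, 218 and 182 FPKM in control animals. The smallest p values with GO were those of nlp-31 (−0.30) and nlp-28 (−0.12), adjusted p 0.832 and 0.914 in limma. As with cnc-2, control replicate 2 had the highest sum, at 1282 FPKM.

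Of 17 genes of the p38 arm in the epidermis 16 were expressed. At an unadjusted p under 0.05 there were 3 with GO and 2 with GONH2 against control (7.74% and 5.31% of all genes). Between the materials there were 0. With GO 14 of the 16 had a positive difference from control and 2 a negative one (12.5% negative, against 38.4% of all genes). With GONH2 11 were positive and 5 negative (31.25% against 48.1%). The groups were apart and higher in 4 with GO (25% against 9.0% of all genes) and 3 with GONH2 (18.75% against 5.18%). cebp-1, a bZIP transcription factor of the C/EBP class, had 25.2, 23.6 and 24.8 FPKM with GO, 23.4, 25.3 and 24.0 FPKM with GONH2, and 20.7, 17.2 and 20.6 FPKM in control animals. Both nanomaterial groups lay above control, and the differences of 0.32 and 0.30 did not pass (adjusted p = 0.133 and 0.269). vhp-1, a phosphatase that acts on MAP kinases, differed by 0.18 for GO minus control (adjusted p = 0.467). In the arm of DBL-1, the signal named above for cnc-2, all 11 listed genes were expressed, and 0 had an unadjusted p under 0.05 in any comparison. Its smallest p values for GO minus control were those of sma-9, a transcription factor (0.12, adjusted p = 0.759), and lon-1, a secreted target of the pathway (0.14, adjusted p = 0.766). Differences from control in this arm were 9 positive and 2 negative with GO (18.2% negative, against 38.4% of all genes). They were 7 positive and 4 negative with GONH2 (36.4% against 48.1%). Groups were apart and higher in 1 gene with each nanomaterial (9.09%, against 9.0% of all genes with GO and 5.18% with GONH2). Between the materials they were apart in 3 genes, 1 higher and 2 lower with GONH2 (27.3% against 10.02%).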

How the data were processed

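RNA-seq was done on 9 samples of whole animals, 3 per group. Per the labels, animals in TRIzol were broken up with beads, RNA was extracted with phenol-chloroform and columns, and stranded TruSeq libraries were sequenced paired-end. The deposited values are FPKM per gene, made by the authors. Aligner, counter, build and annotation: not given in the sources used here. The submitters' processing notes list DESeq2 without a role, and it was not run.

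Of 46284 gene IDs, 43325 were matched to symbols (Ensembl, WBcel235). The 12849 genes reaching 1 FPKM in 3 or more of the 9 libraries were fitted as log2(FPKM + 1) with group as the only term (limma 3.58.1, R 4.3.3; trended prior variance, 2.47 prior and 6 residual degrees of freedom). Benjamini-Hochberg adjustment ran over all 12849 genes, with a threshold of 0.05. The added 1 understates changes of low genes. The fit was tested on simulated data. Figures used matplotlib 3.10.9.

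Members, lists and tests were chosen with earlier results of these data known. By rule, values per library are given for called members, the 3 most abundant of each family and the 3 with the smallest F test p of each; cnc-11, fipr-22, fipr-24, cebp-1, nlp-29 and F23D12.11 were added after their values were seen. From other lists, called genes or the 2 with the smallest p were named. tnt-4, phat-1, phat-2, phat-3, pha-4, ceh-22, mtl-2, vha-6, cpr-6 and C50F2.2 were named after their values were seen.

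Read totals cannot be had from these values. Relative to control replicate 1, steps between low values had a modal ratio of 1.15 to 1.24, which 8.49% to 21.6% of low genes shared. Whole reads were not recovered, so depth is unknown and counting intervals were left out.

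Replicate numbers did not pair the samples (correlations of same-numbered deviations −0.168 to 0.131 over 9 pairs). Alternatives covered pseudocount, filter, scaling, trend, weights, 6-library fits, the replicate block, a threshold of 0.01 and each library left out.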

Additional observations from a re-analysis of the deposited data

Results flagged for a closer look

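Below the level counted as expressed, abf-1 was flagged because all 3 control libraries were listed at 0 while 5 of the 6 libraries with a nanomaterial had a value. It had 0.956, 0.344 and 0.949 FPKM with GO and 1.65, 0.870 and 0 FPKM with GONH2. For the same reason cnc-5 was noted, with values in 3 of the 6 libraries. It had 1.32, 0 and 0 FPKM with GO and 0.705, 0.597 and 0 FPKM with GONH2, against 0 in the control libraries. Both genes were picked on these values, and the share of all low genes with such a pattern was not counted. Neither gene was among the 12849 genes of the comparisons. In the fit with no filter (20688 genes, limma), neither passed: adjusted p was 0.702 with GO and 0.966 with GONH2 for abf-1, and 0.888 with GO and 1 with GONH2 for cnc-5. At these levels a value of 0 may be few reads missed or a failed estimate, and no fold is given. Like abf-2, abf-1 overlaps C50F2.2 (32.5 to 34.9 FPKM) on the opposite strand. Where counting did not use strand, reads of that pair could not be told apart.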

How the results depend on the processing

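Depth is unknown, so no limit of detection can be given for single members. In GO minus control, abf-5 kept its call in all 20 refits and fipr-3 in all that held it. The count of members past the threshold in GONH2 minus control was 0 throughout, as were those of the nlp, p38 and DBL-1 lists. Below, "1 member" replaces 2 or 0, and causes were not tested.

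Under the 5 FPKM filter, which drops fipr-3, 1 member passed in GO minus control and 1 in the F test. In the F test 1 passed also with no filter and at a threshold of 0.01. In GONH2 minus GO 1 member (abf-5) passed with array weights, with the 6-library fit and with pseudocount 5. Family medians moved as follows. The abf median was 0.85 under 5 FPKM in GO minus control, and in GONH2 minus GO −0.58 with array weights, −0.65 under 5 FPKM, −0.24 with no filter and −0.35 with pseudocount 5. The cnc median in GONH2 minus GO was 0.065 under 5 FPKM. With no filter, the fip and fipr medians in GO minus control were 0.13 and −0.19. The fipr median in GONH2 minus control was −0.11 under 5 FPKM, −0.15 with no filter, −0.42 with pseudocount 0.1 and −0.16 with pseudocount 5. Sums of abf levels were 35.4 FPKM with GO and 21.98 FPKM with GONH2 under 5 FPKM, and 38.95 FPKM with GO with no filter. The fipr sum with GONH2 was 254 FPKM under 5 FPKM and 272 FPKM with no filter.

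Signs turned in uncalled members. With array weights, GONH2 minus control was −0.012 for abf-6, −0.081 for cnc-6, −0.064 for cnc-7 and 0.044 for fipr-2, GO minus control was 0.21 for cnc-4, and GONH2 minus GO was 0.039 for cnc-8. For cnc-2, GO minus control was −0.014 with median-of-ratios scaling and −0.019 with quantile normalization. No scaling moved the median of all genes by over 0.1.

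Leaving out each library in turn gave ranges. The F test count ran from 0 to 2 and the GONH2 minus GO count from 0 to 1. In GO minus control, ranges were −0.17 to 0.0013 (fip median), −0.42 to −0.20 (fipr median), −0.19 to 0.22 (cnc-2), −0.21 to 0.19 (cnc-4), −0.21 to 0.017 (cnc-8) and −0.17 to 0.0013 (fip-5). In GONH2 minus control they were −0.44 to −0.25 (fipr median), −0.076 to 0.33 (cnc-2), −0.11 to 0.38 (cnc-6), −0.072 to 0.24 (cnc-7), −0.077 to 0.021 (fip-2), −0.34 to 0.062 (fipr-1) and −0.24 to 0.25 (fipr-2). In GONH2 minus GO they were −0.57 to −0.34 (abf median), −0.20 to 0.11 (fip median), −0.027 to 0.25 (abf-2), −0.085 to 0.25 (cnc-2), −0.15 to 0.082 (cnc-8) and −0.36 to 0.11 (fip-6).

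With the replicate block, calls over all genes numbered 137, 29 and 8 for GO minus control, GONH2 against control and GONH2 against GO, compared with 162, 56 and 17 without it, and member counts kept at 2, 0 and 0. Own numbers were the best match in 6 of 18 comparisons. Over all genes, GONH2 against control also had 32 calls with no filter, 27 without the trend and 24 at the 0.01 threshold. GO against control had 100 at 0.01 and 107 without GO replicate 2. GONH2 against GO had 43 with array weights, 9 without the trend and 8 at 0.01, and 1 to 20 with a library left out. GONH2 against control had 25 to 54 with a library left out.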

Other observations

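A few members had sparse values that fit no comparison. fipr-16 was listed at 3.18 and 3.50 FPKM in GO replicates 1 and 3 and at 0 in the other 7 libraries. fipr-20 was listed at 2.53 and 2.33 FPKM in GONH2 replicates 2 and 3 and at 0 elsewhere. fipr-15 was listed at 11.7 FPKM in GONH2 replicate 3, at 2.27 FPKM in control replicate 3 and at 0 elsewhere. These genes encode peptides of 49, 42 and 50 residues. fipr-4 had 0, 0.719 and 0 FPKM with GO, 0, 0.388 and 0.510 FPKM with GONH2, and 3.17, 0.981 and 0.271 FPKM in control animals. The genes were chosen after their values were seen. In the fit with no filter (limma), 17 members below the level counted as expressed were included and 0 passed in any comparison, with 4 (abf-1, fip-4, fipr-16 and fipr-20) at an unadjusted p under 0.05 in at least 1 comparison. The lowest adjusted p was 0.606, for fipr-16 with GO (unadjusted p = 0.0248).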
